A study of Homo sapiens with 12 samples.

Results

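Collagen genes were taken as every row of the deposited count table whose Ensembl identifier maps to a symbol made of COL, a number, A and a number. There were 44 such genes among the 60649 in the table, 60463 of which had a symbol. They comprised 11 fibrillar chains, 6 type IV chains of the basement membrane and 27 other chains. RNA was measured by poly(A) RNA sequencing in AC16 cells, an established human line labelled wild type and ventricular cardiomyocyte and made by fusing adult ventricular cells with a transformed fibroblast line. Acute cells were kept for 24 h with recombinant human IFN-α2a, a type I interferon, at 1000 U/mL and then harvested. Recovery cells were given the same 24 h exposure and then 5 days without cytokine, with harvest labelled day 6. Repeat cells were exposed for 24 h, left 4 days without cytokine and exposed again for 24 h, with harvest labelled day 7 although those times sum to 6 days. Vehicle cells received PBS and are labelled 24 h, although the protocol speaks of equivalent intervals, so their time of harvest is not settled. As labelled, time in culture and interferon history cannot be told apart where recovery or repeat is set against vehicle or acute. Each group had 3 libraries, called independent biological replicates in the design text, and all 12 carried 1 batch label.

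Collagens are trimers of chains that wind into a triple helix of Gly-X-Y repeats. Fibrillar chains assemble into the fibrils that give heart tissue its tensile strength, with types I and III the main fibrils of the cardiac interstitium. Type IV chains form the sheet-like network of the basement membrane that surrounds each cardiomyocyte and capillary, and type VI chains form beaded filaments that link cells to that matrix. Nascent chains are hydroxylated and folded in the endoplasmic reticulum, exported in large carriers, trimmed by propeptidases and crosslinked by lysyl oxidases. In the heart these genes are best known from fibroblasts.

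Libraries held 39941319 to 62281900 estimated counts, and 18119 genes passed the filter on low counts. As a check of the labels, MX1, a dynamin-like antiviral GTPase induced by interferon, differed by a log2 fold change of 7.73 in acute and 7.78 in repeat against vehicle, and still by 1.08 in recovery. Only 1 of 10 cardiomyocyte markers passed the filter (ACTN2, a sarcomeric actinin). The marker MYL7, an atrial myosin light chain, was at 0 in all 12 libraries, and the summed cardiomyocyte markers lay between 1.95 and 2.05 CPM (counts scaled to a common library size by TMM) in acute, 2.60 and 3.52 in recovery, 3.41 and 3.99 in repeat, and 1.63 and 1.70 in vehicle libraries. All 10 fibroblast markers passed, with 3 called higher and 5 lower in acute, 1 and 5 in recovery, and 3 and 6 in repeat against vehicle, at median log2 fold changes of -0.12, -0.16 and -0.42. Their sum was mostly FN1 and VIM RNA and lay between 14983 and 15437 CPM in acute, 12602 and 12726 in recovery, 14257 and 14785 in repeat, and 12010 and 12572 in vehicle libraries. The fibroblast proteoglycan DCN averaged 23.4 ± 0.561 CPM in acute, 30.4 ± 0.399 in recovery and 22.2 ± 1.06 in repeat, against 40.3 ± 3.05 in vehicle libraries (SD, n = 3 each). All 6 smooth muscle markers passed and summed to between 661 and 680.3 CPM in acute, 557 and 563 in recovery, 611 and 619 in repeat, and 575 and 602 in vehicle libraries. Endothelial markers (4 of 6 passed) summed to at most 13.9 CPM. Of 5 leukocyte markers 3 passed and CD3E was at 0, with CD68, a lysosomal protein of macrophages and other cells, at 230.5 ± 7.61 CPM in acute, 115 ± 5.57 in recovery and 240.1 ± 5.42 in repeat, against 93.6 ± 0.401 in vehicle libraries. In bulk RNA, fewer cells of a type and less RNA per cell cannot be told apart, and the part of these marker shifts in the collagen results was not tested.

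Of the 44 collagen genes, 32 averaged at least 10 counts over the 12 libraries, 19 of them at least 1000. The 12 below 10 mean counts were COL2A1, COL6A5, COL9A1, COL9A3, COL19A1, COL20A1, COL21A1, COL22A1, COL23A1, COL25A1, COL26A1 and COL28A1. Of these COL6A5, a type VI chain, had no count in any library, and COL21A1, at a mean of 8.25 counts, was the only 1 that passed the filter. The cartilage fibril chain COL2A1 averaged 1.58 counts. All further tests therefore concern 33 genes: 10 of 11 fibrillar, 6 of 6 basement membrane and 17 of 27 others.

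Per unit of transcript length, on the deposited TPM scale, COL1A1 led with a mean of 1196 TPM over all libraries. The type VI chain COL6A2 followed at 874, then COL6A3 at 387, COL1A2 at 326, COL3A1 at 323, COL6A1 at 209, COL4A2 at 195 and COL5A2 at 128 TPM. Below COL6A2 this order of pooled means did not hold in every group. COL6A3 lay at 404 to 459 TPM in acute, 352 to 358 in recovery and 418 to 446 in repeat, against 306 to 348 in vehicle libraries. COL3A1 lay at 279 to 322 TPM in acute, 274 to 356 in recovery and 249 to 274 in repeat, against 385 to 456 in vehicle libraries. COL6A3 was therefore above COL3A1 in acute and repeat and below it in vehicle libraries, and the ranges of both overlapped in recovery. COL4A2 was above COL6A1 in vehicle libraries, below it in recovery and repeat, and overlapped it in acute. The tail of the tested genes (COL5A3, COL14A1, COL15A1) lay below 0.1 TPM. All collagen genes together took up 1.249 ± 0.0175% of counts in acute, 1.24 ± 0.0117% in recovery, 1.17 ± 0.0253% in repeat and 1.34 ± 0.0273% in vehicle libraries (SD, n = 3 each).

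**Figure D1:**
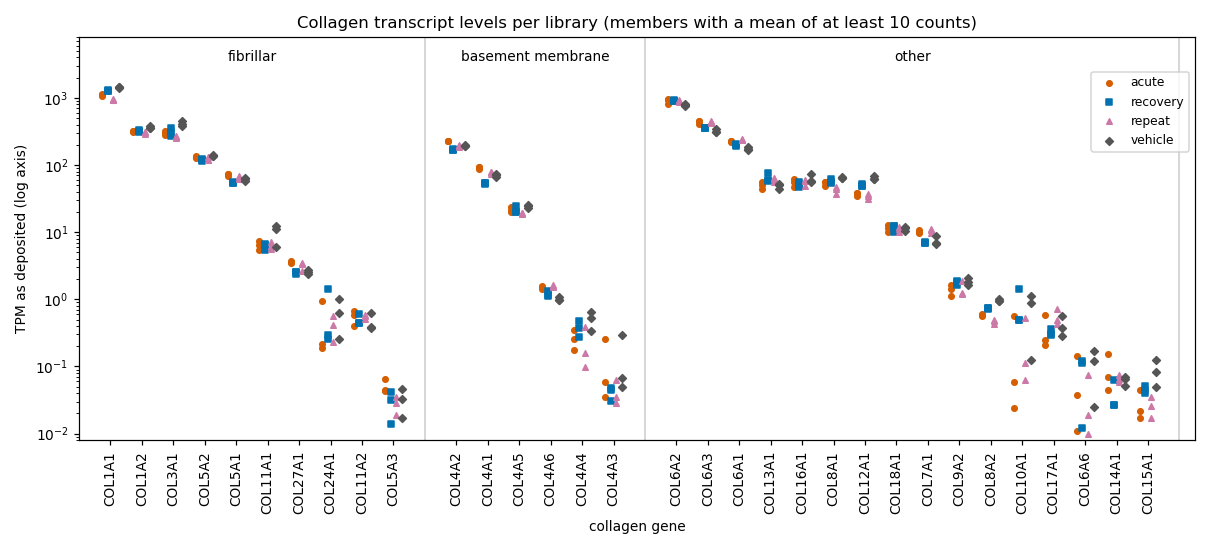
Deposited TPM (log axis) of each collagen gene with a mean of at least 10 counts, ordered by class and level, 1 point per library, with acute, recovery, repeat and vehicle libraries side by side. COL1A1, at a mean of 1196 TPM, stood highest, and the tested genes ran down to COL5A3, COL14A1 and COL15A1 below 0.1 TPM.

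Summed by class, fibrillar chains reached 1916, 1904 and 2016 TPM in acute, 2109, 2055 and 2124 TPM in recovery and 1756, 1659.7 and 1702 TPM in repeat libraries, against 2411, 2427 and 2492 TPM in vehicle libraries. The groups did not overlap, and repeat was lowest. Type IV chains summed to 341 ± 2.60 TPM in acute, 246 ± 4.47 in recovery and 288 ± 10.3 in repeat, against 291 ± 7.03 in vehicle libraries (SD, n = 3 each). For type IV, acute was highest, recovery lowest, and repeat and vehicle overlapped. The remaining chains, mostly type VI RNA, summed to 1783 ± 119 TPM in acute, 1703 ± 33.4 in recovery and 1793 ± 60.9 in repeat, against 1547 ± 65.4 in vehicle libraries. The fibrillar sum was below vehicle, and the sum of the other chains above it, in each of the 3 groups that had received interferon.

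A gene was called when its p from edgeR's quasi-likelihood F test, adjusted over all 18119 genes tested, was under 0.05. In acute against vehicle, 9 collagens were higher and 14 lower, where 22.3% of all genes were called higher and 21.5% lower. In recovery against vehicle, 4 were higher and 15 lower, where only 3.03% of all genes were called higher and 2.91% lower. In repeat against vehicle, 8 were higher and 13 lower, where the shares over all genes were 23.4% and 22.9%. The 19 collagens with a mean of at least 1000 counts were also set beside the 7827 genes at that level. In acute against vehicle 7 were higher and 8 lower, where 33.8% and 31% of those genes were called. In recovery 4 were higher and 13 lower, where 5.38% and 4.66% were called. In repeat 6 were higher and 9 lower, where 34.8% and 31.8% were called.

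Fewer collagens were called when deposited TPM were fitted on a log scale in limma than when counts were tested in edgeR. Both the values and the test differ between these fits, and the reason for the lost calls was not tested. Counts tested in edgeR with a gene length offset kept 15 of 23 calls in acute, 7 of 19 in recovery and 16 of 21 in repeat against vehicle. On log2(TPM + 0.1) the acute comparison gave 9 higher and 7 lower collagens, and 15 of the 23 calls were kept, where 14% and 9.94% of all genes were called higher and lower on that scale. The recovery comparison gave 0 higher and 4 lower (COL1A1, COL4A1, COL4A2 and COL12A1), where the shares over all genes were 0.447% and 0.243%. The repeat comparison gave 6 higher and 9 lower, where they were 14.2% and 11.6%. Calls were thus fewer on that scale over all genes too. The other 15 recovery calls were made on the count scale and not on this one.

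**Figure D2:**
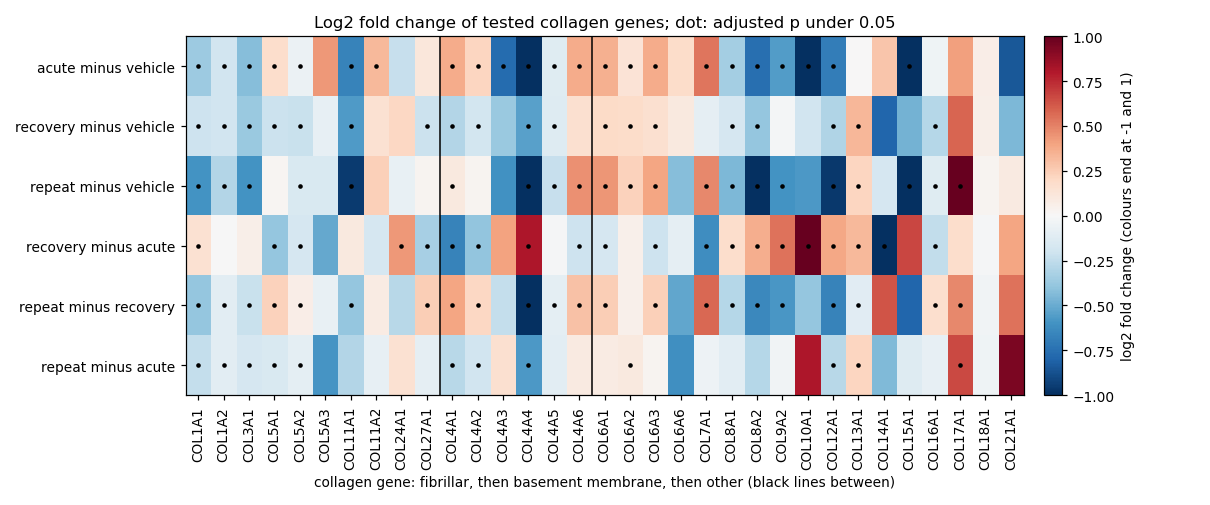
Log2 fold changes of the 33 tested collagen genes (columns, ordered fibrillar, basement membrane, other) in 6 comparisons (rows), red higher and blue lower in the group named first, with colours ending at -1 and 1 and a dot where the adjusted p is under 0.05. The acute and repeat rows against vehicle show blue for COL1A1, COL3A1, COL11A1, COL8A2 and COL12A1 and red for COL6A1, COL6A3 and COL7A1.

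Fibrillar chains were called lower more often than higher in all 3 groups against vehicle. In acute against vehicle, 2 of the 10 tested were higher and 5 lower, where 22.3% and 21.5% of all genes were called. In recovery 0 were higher and 7 lower, where the shares were 3.03% and 2.91%. In repeat 0 were higher and 5 lower, where they were 23.4% and 22.9%. The median log2 fold change over the 10 was -0.12 in acute, -0.21 in recovery and -0.15 in repeat, against medians of at most 0.0018 in size over all genes.

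COL1A1, the α1 chain of type I collagen (chr17:50184101-50201632, minus strand in GRCh38), had 3613, 3828 and 3816 CPM in acute, 4209, 4196 and 4125 CPM in recovery and 3301, 3185 and 3078 CPM in repeat libraries, against 4674, 4854 and 4929.5 CPM in vehicle libraries. All 4 groups were separate, in the order repeat, acute, recovery, vehicle. Its log2 fold change against vehicle was -0.36 (SE 0.026, adjusted p = 1.17e-10) in acute, -0.21 (SE 0.026, adjusted p = 1.56e-05) in recovery and -0.60 (SE 0.026, adjusted p = 1.36e-14) in repeat, so that it was lower by 33.8% after the later pulse. Repeat was also below acute, with a log2 fold change of -0.24 (SE 0.026, adjusted p = 1.11e-05). A gene without a symbol overlaps COL1A1 exons on the other strand. Whether counting used strand is not given in the sources used here, so reads of such partners cannot be told apart, which also holds for COL4A2 (COL4A2-AS1 and COL4A2-AS2), COL4A3, COL5A1, COL5A3, COL15A1, COL16A1 and COL18A1.

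COL1A2, the α2 chain of the same trimer, had log2 fold changes of -0.19 (adjusted p = 2.53e-08) in acute, -0.19 (adjusted p = 6.54e-07) in recovery and -0.30 (adjusted p = 3.16e-12) in repeat against vehicle. The ratio of COL1A1 to COL1A2 TPM was 3.50 ± 0.126 in acute and 3.13 ± 0.118 in repeat, against 4.00 ± 0.129 in vehicle libraries, while recovery libraries, at 3.98 ± 0.192, overlapped vehicle (SD, n = 3 each). COL1A1 alone took 29.8 ± 0.583% of all collagen counts in acute, 34.0 ± 0.628% in recovery and 27.2 ± 0.639% in repeat, against 36.1 ± 0.527% in vehicle libraries.

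COL3A1, the homotrimeric type III chain that co-assembles with type I fibrils, had 591, 568 and 585 CPM in acute, 603, 583 and 631 CPM in recovery and 525, 512 and 518 CPM in repeat libraries, against 799, 739 and 809.7 CPM in vehicle libraries. Vehicle was above every other library and repeat below every other, with acute and recovery overlapping. The log2 fold change against vehicle was -0.43 (SE 0.034, adjusted p = 5.96e-08) in acute, -0.37 (SE 0.033, adjusted p = 6.48e-06) in recovery and -0.59 (SE 0.034, adjusted p = 1.18e-09) in repeat. The recovery call was lost on log2(TPM + 0.1) (-0.42, adjusted p = 0.0922).

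COL11A1, a minor chain that sits inside fibrils and limits their width, showed the lowest fibrillar fold changes, with 30.0, 27.7 and 26.8 CPM in acute, 32.9, 27.7 and 30.1 CPM in recovery and 23.4, 22.5 and 23.3 CPM in repeat libraries, against 49.6, 43.3 and 41.03 CPM in vehicle libraries. Vehicle again did not overlap any other group. Against vehicle its log2 fold change was -0.67 (SE 0.08, adjusted p = 4.30e-05) in acute, -0.57 (SE 0.079, adjusted p = 0.00147) in recovery and -0.96 (SE 0.08, adjusted p = 2e-06) in repeat. The gene length implied by its counts and TPM varied by 21.6% (coefficient of variation over libraries), and none of these 3 calls was kept on log2(TPM + 0.1), where the repeat value was -0.57, adjusted p = 0.103. Its relative COL11A2 was higher in acute on the count scale, at 0.32 (adjusted p = 0.0215), and lost that call without vehicle replicate 2 (0.26, adjusted p = 0.101) or acute replicate 1 (0.29, adjusted p = 0.0830).

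**Figure D3:**
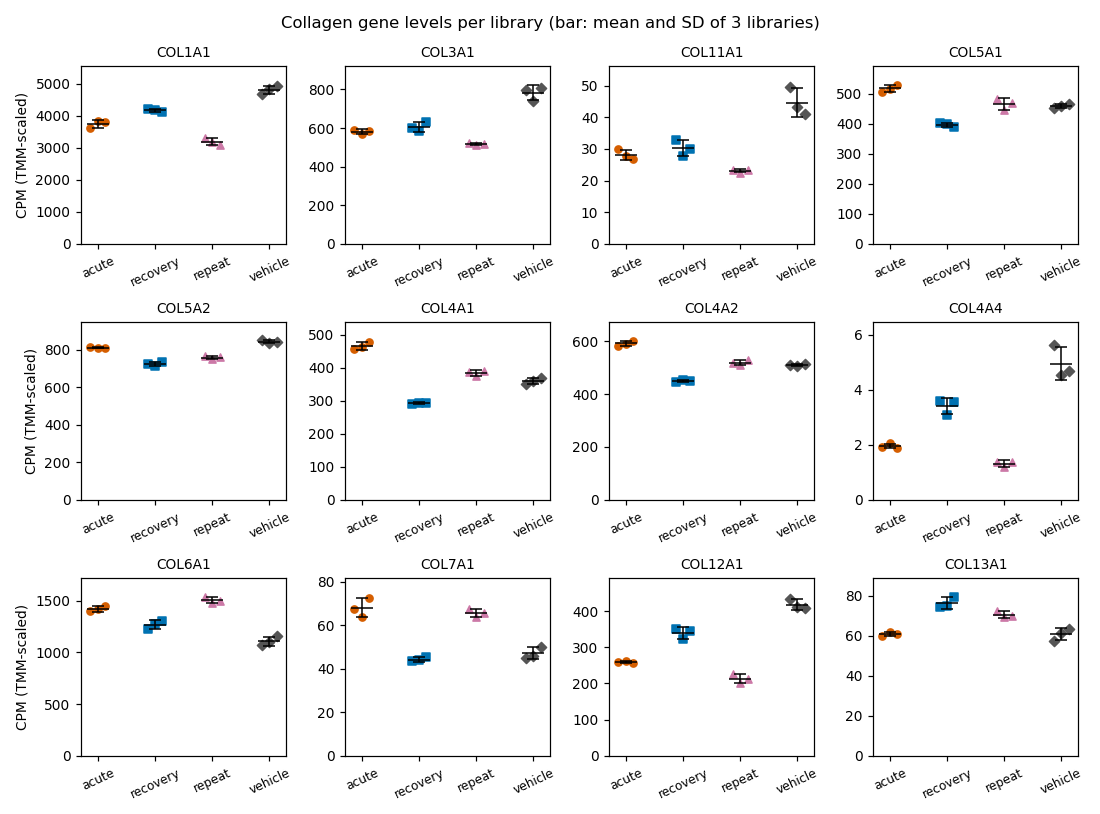
TMM-scaled CPM of 12 collagen genes in each library, in the order acute, recovery, repeat, vehicle, with bars for the mean and SD of 3 libraries. COL1A1, COL3A1, COL11A1 and COL12A1 lie highest in vehicle, COL4A1, COL4A2 and COL5A1 highest in acute and lowest in recovery, and COL13A1 highest in recovery.

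Type V collagen, which starts fibril assembly, divided by chain. COL5A1 had 507, 518 and 531 CPM in acute, 401, 398 and 390.1 CPM in recovery and 484, 447 and 469 CPM in repeat libraries, against 452, 460.2 and 466 CPM in vehicle libraries. Acute lay above and recovery below vehicle, and repeat overlapped it. Its log2 fold change was 0.17 (SE 0.025, adjusted p = 2.01e-06) in acute and -0.21 (SE 0.025, adjusted p = 2.20e-06) in recovery against vehicle, and 0.022 (adjusted p = 0.516) in repeat. Against acute it was -0.39 (adjusted p = 1.61e-12) in recovery and -0.15 (adjusted p = 0.000602) in repeat.

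COL5A2, the partner chain (chr2:189031898-189225312, minus strand), had 817, 811 and 811 CPM in acute, 724, 714 and 738 CPM in recovery and 766, 749 and 764 CPM in repeat libraries, against 855, 838 and 842 CPM in vehicle libraries. Vehicle was highest, acute next, then repeat, then recovery, without overlap. Its log2 fold change against vehicle was -0.055 (SE 0.019, adjusted p = 0.0214) in acute, -0.22 (SE 0.019, adjusted p = 1.02e-08) in recovery and -0.15 (SE 0.019, adjusted p = 1.53e-07) in repeat. The acute call was lost without vehicle replicate 1 (-0.047, adjusted p = 0.0978) or acute replicate 3 (-0.054, adjusted p = 0.0604). The ratio of COL5A1 to COL5A2 TPM was 0.546 ± 0.00625 in acute, 0.461 ± 0.00663 in recovery and 0.522 ± 0.0415 in repeat, against 0.449 ± 0.0169 in vehicle libraries.

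On the count scale the less abundant fibrillar chains COL24A1 and COL27A1 were not called in acute or repeat against vehicle. COL27A1 was -0.22 (adjusted p = 0.00574) in recovery on counts, but -0.026 (adjusted p = 0.967) on log2(TPM + 0.1). Its deposited TPM averaged 3.59 ± 0.173 in acute, 2.495 ± 0.104 in recovery and 3.13 ± 0.453 in repeat, against 2.54 ± 0.153 in vehicle libraries (SD, n = 3 each). COL24A1 had 2.03, 1.59 and 1.63 CPM in acute, 2.20, 2.58 and 2.38 CPM in recovery and 1.95, 1.81 and 2.14 CPM in repeat libraries, against 2.17, 1.97 and 2.06 CPM in vehicle libraries, and was called only in recovery against acute, at 0.43 (SE 0.14, adjusted p = 0.0159). That call was lost without acute replicate 2 (0.37, adjusted p = 0.0646), acute replicate 3 (0.38, adjusted p = 0.0612) or recovery replicate 2 (0.38, adjusted p = 0.0671). COL5A3, at 16.6 mean counts, was called in no comparison.

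The 6 type IV genes lie in 3 pairs, each pair transcribed in opposite directions from neighbouring starts. For each pair the longest stretch between the RefSeq starts that lies in 1 promoter window and outside GENCODE exons is shown, since the chains of a pair did not always move together. Bases are on the plus strand, as RefSeq gives them in GRCh38.p14. Capitals mark CCAAT boxes and GC boxes (GGGCGG) on either strand. The stretches cover chr13:110307158-110307257 for COL4A1 and COL4A2, chr2:227164206-227164395 for COL4A4 and COL4A3, and chrX:108439588-108439837 for COL4A6 and COL4A5.
COL4A1/COL4A2: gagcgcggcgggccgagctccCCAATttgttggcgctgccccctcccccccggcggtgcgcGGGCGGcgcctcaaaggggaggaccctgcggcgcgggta
COL4A4/COL4A3: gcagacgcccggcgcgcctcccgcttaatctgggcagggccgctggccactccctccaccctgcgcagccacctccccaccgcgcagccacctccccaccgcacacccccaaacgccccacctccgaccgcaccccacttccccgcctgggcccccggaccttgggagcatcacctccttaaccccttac
COL4A6/COL4A5: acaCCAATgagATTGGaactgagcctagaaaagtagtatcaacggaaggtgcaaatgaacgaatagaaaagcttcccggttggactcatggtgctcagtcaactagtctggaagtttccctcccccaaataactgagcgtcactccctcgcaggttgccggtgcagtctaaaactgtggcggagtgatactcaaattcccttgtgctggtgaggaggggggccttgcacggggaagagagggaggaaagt
The stretches hold 100 of the 126 bases between starts for COL4A1 and COL4A2, 190 of 418 for COL4A4 and COL4A3, and 250 of 379 for COL4A6 and COL4A5, and the motif counts cover these bases alone. The GENCODE span of COL4A2 given with its values includes transcripts that start further upstream, inside COL4A1. The first stretch had 1 CCAAT box and 1 GC box at 78% GC. The COL4A4 and COL4A3 stretch had neither motif, and the COL4A6 and COL4A5 stretch had a CCAAT box on each strand. None of these 3 stretches held an interferon-stimulated response element core (GAAANNGAAA) on either strand. Windows from 250 bases before to 50 after the start were available for 32 of the 44 collagen genes, as 44 windows. This motif occurred in 1 of those windows, for COL17A1, where 3.574% of 35116 windows of all genes held it. The GAS motif (TTCNNNGAA), also scanned, occurred in 2 of them, for COL7A1 and COL11A2, where 7.657% of all windows held it. The 12 genes without a window, which were not scanned, were COL1A1, COL1A2, COL2A1, COL3A1, COL5A2, COL6A1, COL6A5, COL8A1, COL9A3, COL14A1, COL20A1 and COL22A1.

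Each of the 6 type IV genes was called in acute against vehicle, 3 higher and 3 lower, where 22.3% and 21.5% of all genes were called. COL4A1 and COL4A2, whose products form the ubiquitous α1α1α2 trimer of basement membranes, were higher in acute and lower in recovery. COL4A1 (chr13:110148963-110307157, minus strand) had 457, 462 and 479.6 CPM in acute, 289.9, 294 and 295 CPM in recovery and 386, 375 and 391 CPM in repeat libraries, against 350.4, 359 and 370.0 CPM in vehicle libraries. The 4 groups did not overlap, with acute highest and recovery lowest. Its log2 fold change against vehicle was 0.37 (SE 0.023, adjusted p = 1.72e-13) in acute, -0.30 (SE 0.024, adjusted p = 1.93e-09) in recovery and 0.094 (SE 0.023, adjusted p = 0.00141) in repeat.

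COL4A2 (chr13:110305812-110513209, plus strand) had 582, 590.4 and 603 CPM in acute, 445, 452 and 449.7 CPM in recovery and 519, 509.8 and 529 CPM in repeat libraries, against 509, 507 and 516 CPM in vehicle libraries. Acute lay above and recovery below every vehicle library, and repeat and vehicle overlapped. The differences from vehicle were 0.21 (SE 0.02, adjusted p = 1.18e-09) in acute and -0.19 (SE 0.02, adjusted p = 4.31e-07) in recovery, with 0.024 (adjusted p = 0.366) in repeat. Both chains were lower in repeat than in acute, COL4A1 at -0.28 (SE 0.023, adjusted p = 1.30e-08) and COL4A2 at -0.19 (SE 0.02, adjusted p = 1.13e-06). The ratio of COL4A1 to COL4A2 TPM was 0.403 ± 0.0102 in acute, 0.317 ± 0.00554 in recovery and 0.400 ± 0.00919 in repeat, against 0.356 ± 0.0122 in vehicle libraries.

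The COL4A3 and COL4A4 chains, found with COL4A5 in the basement membrane of kidney, lung and ear, were far scarcer. COL4A4 had 1.92, 2.05 and 1.89 CPM in acute, 3.59, 3.07 and 3.57 CPM in recovery and 1.38, 1.18 and 1.38 CPM in repeat libraries, against 5.64, 4.53 and 4.68 CPM in vehicle libraries. No groups overlapped, and the order was repeat, acute, recovery, vehicle. Its log2 fold change against vehicle was -1.35 (SE 0.12, adjusted p = 5.76e-10) in acute, -0.54 (SE 0.12, adjusted p = 0.00341) in recovery and -1.92 (SE 0.13, adjusted p = 5.98e-13) in repeat, the last being the lowest of any tested collagen in that comparison. Repeat was below acute at -0.57 (SE 0.14, adjusted p = 0.0166), a call lost without acute replicate 2 (-0.54, adjusted p = 0.0729) or repeat replicate 2 (-0.50, adjusted p = 0.105). The recovery call was lost without vehicle replicate 1 (-0.43, adjusted p = 0.0707). Its implied gene length varied by 30.4%, and on log2(TPM + 0.1) neither the acute nor the repeat difference was called (-0.75, adjusted p = 0.141 in acute and -0.9999, adjusted p = 0.0512 in repeat).

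COL4A3, at 20.8 mean counts, had 0.356, 0.304 and 0.326 CPM in acute, 0.493, 0.325 and 0.492 CPM in recovery and 0.313, 0.275 and 0.536 CPM in repeat libraries, against 0.525, 0.566 and 0.606 CPM in vehicle libraries. Acute lay below vehicle without overlap, at -0.77 (SE 0.31, adjusted p = 0.0469), but the call was lost in 8 of the 12 fits that left out 1 library, each library of acute and vehicle among them, where the log2 fold change lay between -0.84 and -0.72. DESeq2 did not call it either (-0.78, adjusted p = 0.124).

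The X-linked pair split in direction. COL4A5 was lower in acute, -0.12 (adjusted p = 0.00211), in recovery, -0.13 (adjusted p = 0.00937), and in repeat, -0.23 (adjusted p = 5.42e-07). The recovery call was lost without vehicle replicate 1 (-0.11, adjusted p = 0.110) or recovery replicate 2 (-0.11, adjusted p = 0.0873). COL4A6, which joins COL4A5 in smooth muscle basement membranes, had 9.51, 9.62 and 9.27 CPM in acute, 7.73, 8.14 and 8.67 CPM in recovery and 10.3, 9.36 and 10.6 CPM in repeat libraries, against 7.69, 7.26 and 6.95 CPM in vehicle libraries. Acute and repeat lay above vehicle and recovery. COL4A6 differed from vehicle by 0.37 (SE 0.07, adjusted p = 6.79e-05) in acute and 0.46 (SE 0.068, adjusted p = 2.22e-06) in repeat, and by 0.16 (adjusted p = 0.220) in recovery, which was not called.

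COL6A1, COL6A2 and COL6A3, chains of the type VI beaded filament, were the 3 of 33 tested collagens called higher in each of acute, recovery and repeat against vehicle. Of the other type VI genes COL6A6, at 12.0 mean counts, was tested and called in no comparison. COL6A1 had 1399, 1416 and 1452 CPM in acute, 1223, 1273 and 1308 CPM in recovery and 1539, 1479 and 1503 CPM in repeat libraries, against 1072, 1099.9 and 1157 CPM in vehicle libraries. Every library of the 3 groups lay above every vehicle library. The log2 fold change was 0.36 (SE 0.028, adjusted p = 8.35e-10) in acute, 0.19 (SE 0.028, adjusted p = 9.48e-05) in recovery and 0.44 (SE 0.027, adjusted p = 2.51e-11) in repeat.

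COL6A2 had 868, 901 and 906 CPM in acute, 898, 932 and 943 CPM in recovery and 969, 951 and 945 CPM in repeat libraries, against 791, 806 and 842 CPM in vehicle libraries. All 3 groups lay above vehicle, with acute and recovery overlapping. Its differences were 0.13 (SE 0.024, adjusted p = 4.06e-05) in acute, 0.18 (SE 0.024, adjusted p = 6.48e-06) in recovery and 0.23 (SE 0.024, adjusted p = 4.61e-09) in repeat. Repeat was above acute by 0.10 (SE 0.024, adjusted p = 0.0161), a call lost without acute replicate 1 (0.079, adjusted p = 0.115) or repeat replicate 2 (0.10, adjusted p = 0.0550).

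COL6A3, the largest of the 3 chains, had 1445, 1432 and 1490.2 CPM in acute, 1234, 1256 and 1295 CPM in recovery and 1538, 1419 and 1501 CPM in repeat libraries, against 1073, 1117 and 1194 CPM in vehicle libraries. Vehicle was below all other groups, and acute overlapped repeat. It differed from vehicle by 0.37 (SE 0.04, adjusted p = 1.55e-05) in acute, 0.16 (SE 0.04, adjusted p = 0.0423) in recovery and 0.40 (SE 0.04, adjusted p = 7.21e-06) in repeat. The recovery call was lost in 8 of 12 fits that left out 1 library, for example without vehicle replicate 1 (0.13, adjusted p = 0.0798) or recovery replicate 3 (0.14, adjusted p = 0.137). In those 8 fits the fold change lay between 0.13 and 0.17. None of the type VI calls in recovery was kept on log2(TPM + 0.1). The ratio of COL6A1 to COL6A2 TPM was 0.253 ± 0.0204 in acute, 0.218 ± 0.00657 in recovery and 0.261 ± 0.00464 in repeat, against 0.224 ± 0.00228 in vehicle libraries.

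COL7A1, the anchoring fibril chain that ties epithelial basement membranes to the stroma, was called higher in acute and repeat and not in recovery. It had 67.6, 63.8 and 72.7 CPM in acute, 43.4, 43.8 and 45.4 CPM in recovery and 67.3, 63.8 and 65.8 CPM in repeat libraries, against 45.1, 46.0 and 50.2 CPM in vehicle libraries. Acute and repeat lay above vehicle, and recovery overlapped it. The log2 fold change against vehicle was 0.53 (SE 0.045, adjusted p = 1.51e-08) in acute, 0.48 (SE 0.044, adjusted p = 4.49e-08) in repeat and -0.09 (adjusted p = 0.353) in recovery. Repeat and acute overlapped. A microRNA gene, MIR711, lies in COL7A1 exons on the same strand, as MIR3606 does in COL3A1 and MIR936 in COL17A1.

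COL12A1, a fibril-associated chain that decorates type I fibrils, showed the same order of groups as COL1A1. It had 260.0, 262 and 256 CPM in acute, 352, 322 and 344 CPM in recovery and 226, 203 and 213 CPM in repeat libraries, against 435, 411 and 407 CPM in vehicle libraries. The groups were separate, in the order repeat, acute, recovery, vehicle. Against vehicle its log2 fold change was -0.69 (SE 0.043, adjusted p = 9.98e-08) in acute, -0.30 (SE 0.042, adjusted p = 0.00130) in recovery and -0.97 (SE 0.043, adjusted p = 3.93e-09) in repeat. Repeat was below acute at -0.28 (SE 0.043, adjusted p = 0.00566), and recovery above acute at 0.39 (adjusted p = 1.95e-05). On log2(TPM + 0.1) the repeat against acute call was lost (-0.11, adjusted p = 0.669).

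Type VIII chains, short network formers of vessel walls, were lower in all 3 groups. COL8A2 had 4.58, 4.28 and 4.31 CPM in acute, 5.45, 5.76 and 5.78 CPM in recovery and 3.77, 3.72 and 3.34 CPM in repeat libraries, against 7.22, 7.06 and 7.97 CPM in vehicle libraries. Again no groups overlapped and repeat was lowest. Its log2 fold change against vehicle was -0.75 (SE 0.086, adjusted p = 2.91e-08) in acute, -0.39 (SE 0.083, adjusted p = 0.00316) in recovery and -1.03 (SE 0.086, adjusted p = 5.85e-11) in repeat, and that of COL8A1 was -0.34 (adjusted p = 5.65e-07), -0.17 (adjusted p = 0.00776) and -0.45 (adjusted p = 1.65e-08) in the same order. COL9A2, a fibril-associated chain of cartilage, had 4.15, 3.70 and 3.68 CPM in acute, 5.76, 5.35 and 5.74 CPM in recovery and 3.97, 3.70 and 3.59 CPM in repeat libraries, against 5.83, 6.00 and 5.24 CPM in vehicle libraries. Acute and repeat lay below recovery and vehicle, which overlapped. It was -0.56 (SE 0.094, adjusted p = 1.44e-05) in acute and -0.60 (SE 0.093, adjusted p = 3.97e-06) in repeat against vehicle. Neither COL9A2 call was kept on log2(TPM + 0.1).

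COL10A1, a network-forming chain of hypertrophic cartilage, and COL15A1, a basement membrane proteoglycan collagen, had low counts. COL10A1, at 17.6 mean counts, had 0.249, 0.101 and 0.186 CPM in acute, 0.605, 0.455 and 0.226 CPM in recovery and 0.294, 0.404 and 0.268 CPM in repeat libraries, against 0.525, 0.385 and 0.541 CPM in vehicle libraries. Acute CPM were below vehicle without overlap, at -1.38 (SE 0.39, adjusted p = 0.00450). Deposited TPM overlapped, at 0.059, 0.024 and 0.568 in acute and 0.123, 1.111 and 0.881 in vehicle libraries. The implied gene length of COL10A1 varied by 91.9%, and the acute call was lost on log2(TPM + 0.1) (-1.44, adjusted p = 0.244). Recovery and acute CPM overlapped although recovery was called higher than acute, at 1.19 (adjusted p = 0.0166). That call was lost without acute replicate 2 (0.94, adjusted p = 0.0856) or recovery replicate 1 (0.87, adjusted p = 0.134), and on log2(TPM + 0.1) (1.77, adjusted p = 0.161). COL15A1, at 14.8 mean counts, had 0.320, 0.127 and 0.163 CPM in acute, 0.291, 0.390 and 0.328 CPM in recovery and 0.258, 0.194 and 0.124 CPM in repeat libraries, against 0.438, 0.362 and 0.606 CPM in vehicle libraries. Acute and repeat lay below vehicle, at -1.14 (SE 0.38, adjusted p = 0.0151) and -1.27 (SE 0.37, adjusted p = 0.00608). The acute call was lost without vehicle replicate 3 (-0.92, adjusted p = 0.0946), acute replicate 2 (-0.92, adjusted p = 0.0821) or acute replicate 3 (-0.999, adjusted p = 0.0691). The repeat call was lost without vehicle replicate 3 (-1.05, adjusted p = 0.0508).

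Of the 4 transmembrane collagens, COL13A1 and COL17A1 were tested, and both were called higher in repeat against vehicle. COL13A1, found at cell contacts and neuromuscular junctions, had 60.1, 61.7 and 61.1 CPM in acute, 74.6, 74.7 and 79.7 CPM in recovery and 72.5, 69.5 and 70.0 CPM in repeat libraries, against 57.6, 61.2 and 63.7 CPM in vehicle libraries. Acute overlapped vehicle, and recovery and repeat were above both. Against vehicle it was 0.004 (adjusted p = 0.943) in acute, 0.33 (SE 0.034, adjusted p = 1.43e-07) in recovery and 0.22 (SE 0.034, adjusted p = 3.81e-06) in repeat. COL17A1, a hemidesmosome component, had 0.961, 1.16 and 1.00 CPM in acute, 1.17, 1.06 and 1.29 CPM in recovery and 1.67, 1.81 and 1.42 CPM in repeat libraries, against 0.771, 0.950 and 0.628 CPM in vehicle libraries. Repeat was above every other library, at 1.07 (SE 0.19, adjusted p = 2.21e-05) against vehicle. Neither was called in acute against vehicle, nor was COL17A1 in recovery, at 0.59 (adjusted p = 0.0759). Both repeat calls were lost on log2(TPM + 0.1). The COL17A1 call of repeat against acute, at 0.66 (adjusted p = 0.0356), was lost in 5 of 12 fits that left out 1 library, those without any acute library or without repeat replicate 1 or 2, where the log2 fold change lay between 0.58 and 0.74. Its call of repeat against recovery, at 0.48 (adjusted p = 0.0304), was lost without recovery replicate 1 or 2 or repeat replicate 1 or 2, where it lay between 0.40 and 0.48.

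COL18A1, the source of endostatin, was called in no comparison, with 47.9 ± 2.20 CPM in acute, 47.6 ± 1.65 in recovery, 46.6 ± 1.28 in repeat and 45.9 ± 1.82 in vehicle libraries (SD, n = 3 each). COL16A1 was lower in recovery against vehicle, -0.29 (adjusted p = 1.32e-05), a call lost on log2(TPM + 0.1) (-0.28, adjusted p = 0.494). It was also called lower in repeat against vehicle and in recovery against acute, and higher in repeat against recovery. None of these calls was kept on log2(TPM + 0.1). COL14A1, at 12.4 mean counts, had 0.303, 0.430 and 0.280 CPM in acute, 0.179, 0.130 and 0.164 CPM in recovery and 0.350, 0.145 and 0.247 CPM in repeat libraries, against 0.315, 0.136 and 0.368 CPM in vehicle libraries. It was called only in recovery against acute, where the groups did not overlap, at -1.07 (adjusted p = 0.0485), and that call was lost in 9 of 12 fits that left out 1 library, where the log2 fold change lay between -1.18 and -0.88.

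Between recovery and acute cells, which also differed in labelled time in culture, collagens differed in both directions. In recovery against acute, 9 were higher and 11 lower, where 20.4% of all genes were called higher and 20.7% lower. The lower group was led by COL4A1, -0.67 (adjusted p = 3.35e-19), COL7A1, -0.62 (adjusted p = 2.54e-09), COL4A2, -0.40 (adjusted p = 2.56e-15), after COL14A1, and by COL5A1. Leading the higher group after COL10A1 were COL4A4, 0.80 (adjusted p = 8.17e-06), COL9A2, 0.54 (adjusted p = 2.93e-05), and COL24A1, followed by COL12A1. The split on log2(TPM + 0.1) was 3 higher and 9 lower, where 8.39% and 12.8% of all genes were called. In repeat against recovery, 11 were higher and 11 lower, where 21.1% and 20.5% of all genes were called. COL7A1, 0.57 (adjusted p = 6.76e-09), COL4A1, 0.39 (adjusted p = 9.41e-14), COL4A6, 0.30 (adjusted p = 0.000720), and COL6A1, 0.25 (adjusted p = 2.16e-07), were higher in repeat, and COL4A4, -1.38 (adjusted p = 1.22e-09), COL12A1, -0.67 (adjusted p = 1.57e-07), COL8A2, -0.65 (adjusted p = 7.41e-07), COL9A2, -0.58 (adjusted p = 8.47e-06), and COL1A1, -0.39 (adjusted p = 3.58e-11), were lower. The log2(TPM + 0.1) split was 7 higher and 4 lower, where 12.1% and 9.02% of all genes were called.

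Repeat and acute cells were both harvested at the end of a pulse. In repeat against acute, 3 collagens were higher (COL6A2, COL13A1 and COL17A1) and 9 lower, where only 1.77% of all genes were called higher and 2.43% lower. Of the 19 collagens with at least 1000 mean counts, 2 were higher and 8 lower, where 3.37% and 4.47% of genes at that level were called. By class, 0 fibrillar chains were higher and 5 lower, 0 type IV chains higher and 3 lower, and 3 other chains higher and 1 lower. With log2(TPM + 0.1) it was 0 higher and 2 lower, COL1A1 and COL4A2, where only 0.0166% and 0.0331% of all genes were called. The count over fits that left out 1 library was 8 to 15, and the lowest of these was without repeat replicate 2.

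The interaction compared the difference of repeat from recovery with that of acute from vehicle. Recovery cells were left 5 days without cytokine and repeat cells 4 days before their second exposure, with harvests labelled day 6 and day 7. Recovery was therefore not the state at the start of the second exposure, and hold and harvest day cannot be told apart from the response to it. COL5A2 was the single collagen called, where 0.221% of all genes were called higher and 0.43% lower. COL5A2 had a log2 fold change of 0.067 in repeat against recovery and of -0.055 in acute against vehicle, a difference of 0.12 (SE 0.027, adjusted p = 0.0342). The call was lost in 8 of the 12 fits that left out 1 library, where the difference lay between 0.11 and 0.13. COL3A1 came next by adjusted p, at 0.20 (adjusted p = 0.0868), and was not called.

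Genes that modify, fold and export collagen chains were mostly called higher in acute and repeat. All 25 were tested: 17 were higher and 3 lower in acute, 1 higher and 2 lower in recovery, and 19 higher and 3 lower in repeat, each against vehicle, where the shares of all genes called were again 22.3% and 21.5%, 3.03% and 2.91%, and 23.4% and 22.9%. The median log2 fold change was 0.25 in acute, -0.025 in recovery and 0.22 in repeat, with the medians over all genes near 0 as above. P4HA2, a prolyl 4-hydroxylase subunit, averaged 103 ± 1.09 CPM in acute, 70.9 ± 1.61 in recovery and 98.2 ± 1.99 in repeat, against 71.3 ± 1.196 in vehicle libraries (SD, n = 3 each). Acute and repeat were high and recovery stood with vehicle, with a log2 fold change of 0.53 (SE 0.026, adjusted p = 8.02e-16) in acute. The prolyl isomerase PPIB, 0.51 (adjusted p = 5.96e-17), the lysyl hydroxylase PLOD3, 0.45 (adjusted p = 1.22e-14), and the prolyl 3-hydroxylase P3H1, 0.44 (adjusted p = 9.92e-15), were also higher in acute. Lower in acute were P3H2, -0.18 (adjusted p = 0.000538), PLOD2, which hydroxylates telopeptide lysines, -0.17 (adjusted p = 1.89e-06), and the isomerase FKBP14, -0.10 (adjusted p = 0.0190), whose call was lost without vehicle replicate 1 (-0.083, adjusted p = 0.0981), vehicle replicate 3 (-0.094, adjusted p = 0.0554) or acute replicate 3 (-0.09, adjusted p = 0.0717). The direction of FKBP14 turned on log2(TPM + 0.1), to 0.16, adjusted p = 0.120, on log2(TPM + 1), to 0.15, adjusted p = 0.120, and with a gene length offset, to 0.13, adjusted p = 0.157. On log2(TPM + 0.1) the split was 15 higher and 0 lower in acute, 0 and 0 in recovery, and 14 and 0 in repeat.

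Of the 15 genes for extracellular processing and crosslinking, 14 were tested. In acute, 5 were higher and 5 lower, in recovery 1 higher and 4 lower, and in repeat 4 higher and 6 lower, where 22.3% and 21.5%, 3.03% and 2.91%, and 23.4% and 22.9% of all genes were called. The split on log2(TPM + 0.1) was 3 higher and 5 lower in acute, 0 and 0 in recovery, and 3 and 5 in repeat. The lysyl oxidases, which crosslink collagen and elastin, split: LOXL3, 0.62 (adjusted p = 2.47e-16), and LOX, 0.41 (adjusted p = 8.72e-15), were higher in acute, while LOXL4, -0.62 (adjusted p = 1.06e-05), and LOXL1, -0.31 (adjusted p = 1.52e-11), were lower. TGM2, a transglutaminase, was higher, 0.53 (adjusted p = 8.40e-09). PXDN, the peroxidasin that forms sulfilimine bonds in type IV collagen, averaged 636 ± 6.81 CPM in acute, 753 ± 11.2 in recovery and 575 ± 11.6 in repeat, against 841 ± 6.58 in vehicle libraries. It was below vehicle in all 3 groups, at -0.40 (adjusted p = 1.46e-15) in acute and -0.55 (adjusted p = 9.24e-19) in repeat. PCOLCE, which enhances procollagen cleavage, was -0.35 (adjusted p = 9.08e-12) in acute and -0.37 (adjusted p = 1.74e-12) in repeat.

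**Figure D4:**
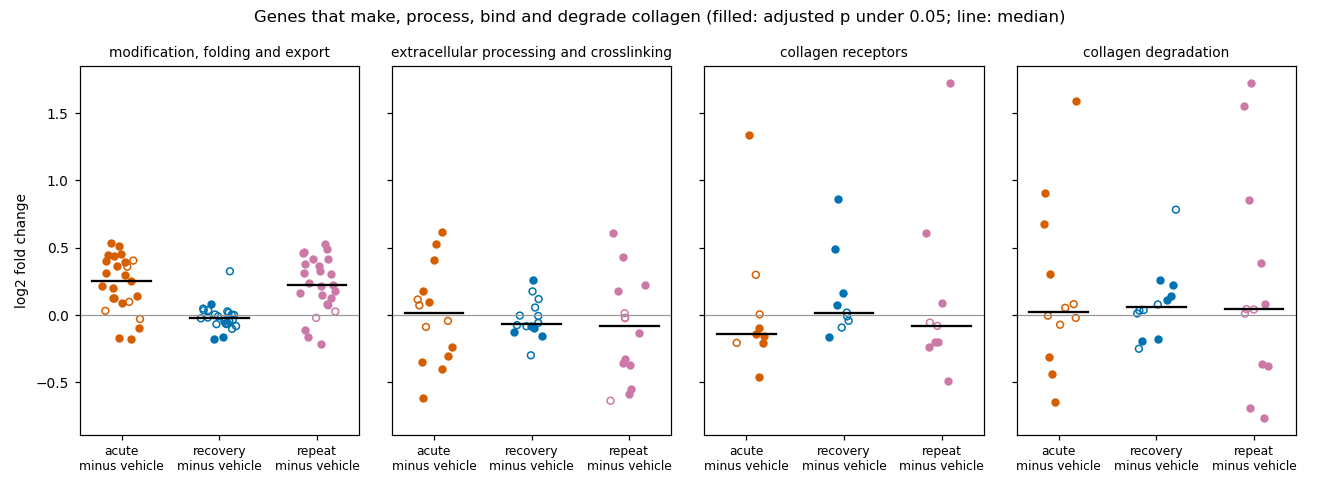
Log2 fold change against vehicle of the tested genes that modify and export, process and crosslink, bind or degrade collagen, in acute, recovery and repeat cells, with filled points where the adjusted p is under 0.05 and a line at the median. The modification and export genes have medians of 0.25 in acute, -0.025 in recovery and 0.22 in repeat.

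On the count scale 1 of 9 tested collagen receptors was higher and 5 were lower in acute, where 22.3% and 21.5% of all genes were called. In recovery 4 were higher and 1 lower, where the shares were 3.03% and 2.91%. In repeat 3 were higher and 4 lower, where they were 23.4% and 22.9%. The exception in acute was ITGA2, the α2 chain of a collagen-binding integrin, with 146 ± 0.960 CPM in acute, 105 ± 10.3 in recovery and 190.5 ± 11.3 in repeat, against 57.7 ± 2.85 in vehicle libraries. It was above vehicle in all 3 groups, at 1.34 (adjusted p = 5.44e-07) in acute and 1.72 (adjusted p = 6.44e-08) in repeat. DDR2, a receptor tyrosine kinase for fibrillar collagen, was lower, -0.46 (adjusted p = 1.19e-13) in acute and -0.49 (adjusted p = 2.99e-14) in repeat, but -0.01 (adjusted p = 0.907) in recovery. On log2(TPM + 0.1) the receptor split was 1 higher and 0 lower in acute, where 14% and 9.94% of all genes were called. The lower calls in acute, DDR2 among them, were therefore not kept on that scale. In recovery the split was 1 and 0, where the shares were 0.447% and 0.243%, and in repeat 1 and 2, where they were 14.2% and 11.6%.

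Among genes that degrade collagen, 12 of 15 were tested, with 4 higher and 3 lower in acute, 4 higher and 2 lower in recovery, and 5 higher and 4 lower in repeat. Over all genes 22.3% and 21.5% were called in acute, 3.03% and 2.91% in recovery, and 23.4% and 22.9% in repeat. With log2(TPM + 0.1) the split of these degradation genes was 3 higher and 2 lower, 0 and 1, and 3 and 3, in the same order. The interstitial collagenase MMP1 was scarce, at 0.377 ± 0.0764 CPM in acute and 0.413 ± 0.168 CPM in repeat, against 0.127 ± 0.0491 CPM in vehicle libraries, and was called higher in acute, 1.59 (adjusted p = 0.00494). The lysosomal protease CTSL was 0.68 (adjusted p = 1.61e-12) in acute and 0.86 (adjusted p = 2.28e-14) in repeat, and the membrane collagenase MMP14 0.30 (adjusted p = 4.36e-08) in acute. FAP, a fibroblast surface protease that trims cleaved collagen, was -0.65 (adjusted p = 5.06e-15) in acute and -0.77 (adjusted p = 7.01e-17) in repeat, and the gelatinase MMP2 was -0.31 (adjusted p = 1.72e-10) in acute. The gelatinase MMP9 and the collagenases MMP8 and MMP13 did not pass the filter.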

How the data were processed

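RNA was measured in 12 AC16 libraries (4 groups of 3, grouped by their titles). Per the submitters' processing notes the authors' tools included featureCounts 2.0.3, STAR 2.7.11a, Trim Galore 0.6.10, edgeR, Picard 2.27.5 and cutadapt 4.3, on build GRCh38.p13. The design text names GENCODE 41 and DESeq2. The authors deposited estimated counts per gene, unscaled, of which 25.49% of nonzero values were not whole, and TPM, scaled by gene length and depth. Counts were rounded and tested in edgeR by the quasi-likelihood F test (TMM, filterByExpr, 1 mean per group, no covariate, two-sided, Benjamini-Hochberg over 18119 genes, called under 0.05). Symbols, coordinates and overlaps came from GENCODE 44 on GRCh38, and promoter bases from RefSeq. Depth of 39941319 to 62281900 counts and a biological coefficient of variation of 2.67% set the precision, and p-values measure the spread between these libraries, which may be partly technical. Simulated 2-fold changes were recovered in 100% and 1.25-fold changes in 75% of genes, for acute against vehicle. The changed genes were drawn from those above a count threshold, and every gene was given the same common spread. The simulation therefore does not show recovery for collagens with few counts or a larger spread. Alternatives were DESeq2, upper quartile scaling, no filter, limma-voom, log2(TPM + 0.1) and log2(TPM + 1) in limma, a gene length offset, a replicate block and leaving out each library. No column was without a sample (0). Full values are given for COL1A1, COL4A1, COL4A2, COL5A2 and, per comparison, the 5 called collagens with the largest fold change in each direction, others being summarised or named after their values were seen. Members and lists were chosen with earlier results of these data known.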

Additional observations from a re-analysis of the deposited data

Results flagged for a closer look

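COL5A2 differed between repeat against recovery and acute against vehicle, where recovery cells had a longer hold than repeat cells before their second pulse. The difference, (repeat minus recovery) minus (acute minus vehicle), was 0.12 on the log2 scale (SE 0.027, adjusted p = 0.0342, edgeR quasi-likelihood test of the interaction). COL5A2 averaged 759.6 ± 8.92 CPM in repeat and 725 ± 11.8 CPM in recovery libraries, and 813 ± 3.66 CPM in acute and 845 ± 8.75 CPM in vehicle libraries (SD, n = 3 each). It was the only one of 33 tested collagens called, and the call was lost in 8 of 12 fits that left out 1 library, in both TPM fits and with the gene length offset.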

How the results depend on the processing

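Of 73 log2 fold changes of collagens chosen by the naming rule none changed sign. Outside them COL11A1 in repeat against recovery, -0.39, turned to 0.039, adjusted p = 0.932 on log2(TPM + 0.1), to 0.035, adjusted p = 0.935 on log2(TPM + 1) and to 0.026, adjusted p = 0.954 with the length offset, and FKBP14 turned in the same settings. Of the 73, 68 kept their call in DESeq2, 4 lost it and the other had no adjusted p, limma-voom kept 71, upper quartile scaling 71 and fits without the filter 69. The gene length offset kept 43, log2(TPM + 0.1) 40 and log2(TPM + 1) 37. The number of collagens called in acute against vehicle was 15 on log2(TPM + 1), against 23. In recovery against vehicle it was 4 on log2(TPM + 0.1), 3 on log2(TPM + 1) and 7 with the offset for length, against 19. In the same order of settings it was 12, 13 and 13 in recovery against acute, against 20, then 11, 11 and 13 in repeat against recovery, against 22, and 2, 2 and 2 in repeat against acute, against 12. Collagens called for the interaction, named the difference between pulses below, numbered 2 in DESeq2, 5 without the filter, 0 on each TPM scale and 0 with the offset, against 1. The cause was not tested. Leaving out each library gave 20 to 24 calls in acute against vehicle, 16 to 19 in recovery against vehicle, 19 to 22 in repeat against vehicle, 17 to 20 in recovery against acute, 20 to 22 in repeat against recovery, 8 to 15 in repeat against acute and 0 to 2 for the difference between pulses. Computed from CPM over the mean implied length, summed type IV chains were 337 in acute, the ratio of COL4A1 to COL4A2 was 0.333 in recovery and 0.378 in repeat, that of COL5A1 to COL5A2 was 0.538 in acute, and that of COL6A1 to COL6A2 was 0.255 in repeat and 0.2205 in vehicle. Deviations of libraries with the same replicate number correlated at -0.192 to 0.233 (median 0.0604, 18 pairs), against a median of -0.0274 for different numbers. Same-number values were all positive for vehicle and acute (0.0739, 0.233 and 0.181) and mixed in sign for vehicle and recovery (0.15, -0.151 and -0.0712). Whether the numbers pair the samples is therefore not settled. With the replicate block all 73 calls were kept, and the counts were 23, 19, 21, 21, 22 and 16 in the order above, with 4 for the difference between pulses. Depth limits the 12 collagens under 10 mean counts, of which 11 were not tested, and those below 100.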
